A study of Rattus norvegicus with 52 samples.

Results

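A set of 10 genes that protect kidney cells from reactive oxygen was followed across 6 groups of rats. They are Gclm, Gclc, Ggt1 and Gstm1 of glutathione metabolism, the peroxide-removing enzymes Cat, Gpx1 and Gpx3, the superoxide dismutases Sod1 and Sod2, and the heme oxygenase Hmox1. The members were named as a list, with earlier results of these data known, and found through the gene symbols of the probe sets. All 10 were found, on 11 probe sets of the RAE230A chip, and all 11 were brighter than the filter on dim probe sets, within 15473 probe sets of 8825 genes tested. RNA of 1 kidney per male rat, aged 40 to 42 days, was hybridised to the Affymetrix chip pair RAE230A and RAE230B.

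The groups were ET3x2 rats on high salt (n = 4) and on low salt (n = 4), ET3x1 rats on high salt (n = 4) and on low salt (n = 4), and SS/jr rats, the Dahl salt-sensitive strain, here called S, on high salt (n = 5) and on low salt (n = 5). ET3x2 and ET3x1 are congenic strains: each is an S rat in which a chromosome segment was bred in from the salt-resistant R strain. A strain difference can therefore come from any gene in the segment, and the labels do not say where the segments end. Array quality also lay apart between some strains, as given below, and its part cannot be told from that of the segment. Every rat was weaned at 30 days onto a diet with 0.4% NaCl. The high-salt rats were moved to 4% NaCl for 24 hours before they were killed, so the salt comparison is between a single day of high salt and continued low salt. S rats 1 and 2 on high salt stood apart on RAE230A, with the smallest differences between the bioD and bioC spike-in controls, and the results that rest on them are given with and without both.

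Glutathione is a small peptide that reduces peroxides and is joined to foreign compounds, and the proximal tubule of the kidney makes, uses and breaks it down at a high rate. Its synthesis starts with glutamate-cysteine ligase, a pair of a catalytic subunit, Gclc, and a modifier subunit, Gclm. Superoxide is turned into hydrogen peroxide by the dismutases, and hydrogen peroxide is then removed by catalase in peroxisomes and by glutathione peroxidases. Several of these genes are known targets of the transcription factor NRF2, which acts through the antioxidant response element.

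Gclm and Cat carry the strain difference described below, so their promoters are shown. Each window runs from 250 bases before to 50 bases after the annotated start of the gene, from RefSeq on GRCr8. The Gclm window is chr2:213031885-213032184 on the plus strand, and its capitals mark a reverse match to TGACNNNGC, the core of the antioxidant response element.
Gclm: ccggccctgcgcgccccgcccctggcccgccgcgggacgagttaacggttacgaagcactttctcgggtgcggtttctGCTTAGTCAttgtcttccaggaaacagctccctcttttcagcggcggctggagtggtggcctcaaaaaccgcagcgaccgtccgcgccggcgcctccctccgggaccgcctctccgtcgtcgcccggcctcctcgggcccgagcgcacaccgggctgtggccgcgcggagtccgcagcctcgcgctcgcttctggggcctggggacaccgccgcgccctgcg
The Cat window is chr3:110329477-110329776 on the minus strand, and its capitals mark CCAAT or its reverse ATTGG.
Cat: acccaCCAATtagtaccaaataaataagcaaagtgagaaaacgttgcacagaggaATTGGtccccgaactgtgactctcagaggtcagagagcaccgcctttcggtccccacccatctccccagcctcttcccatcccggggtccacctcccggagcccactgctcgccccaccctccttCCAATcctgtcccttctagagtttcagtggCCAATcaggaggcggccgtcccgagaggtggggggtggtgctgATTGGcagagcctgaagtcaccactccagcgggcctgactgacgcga
The match in the Gclm window begins at position -172 from the start site, and Cat has none of that motif. Cat holds 5 CCAAT matches, which begin at -245, -195, -70, -40 and 4. Promoters were found for 9 of the 10 genes and searched on both strands. The antioxidant response element core was in 2 of them, Gclm and Sod2, and in 12.1% of 33469 rat promoters of the same length. CCAAT was in 4 of the 9 and in 37.5% of all promoters, and the GC box GGGCGG was in 6 of the 9 and in 33.1% of all promoters. These searches describe letters in a window and not binding.

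The 4 averaged comparisons are considered first. A gene is said to have risen or fallen where its brightest probe set had a limma adjusted p below 0.05, with the adjustment over all 15473 probe sets, and changes are on the log2 scale ± the standard error of the fit. In ET3x2 against S, 4 of the 10 genes passed, where 28.5% of all probe sets did: Ggt1 and Gstm1 were higher and Cat and Gclm lower. In ET3x1 against S, 5 passed against 32.3% of all probe sets: Gpx1, Ggt1, Sod2 and Gstm1 were higher and Gclc lower. Between the congenic strains 3 genes, Cat, Gclm and Sod2, were lower in ET3x2, against 11.1% of probe sets. With salt, averaged over the strains, Cat, Sod2 and Gstm1 rose and Hmox1 fell, 4 genes against 14.5% of probe sets. These shares of 10 genes lie above the shares over all probe sets, but the counts are small and no test of the list was made. The list was also chosen with earlier results of these data known. Each member counts by its brightest probe set, while the other shares run over all tested probe sets. The counts against S lie not far above those shares, so they say little about the members. The comparisons of ET3x2 and of ET3x1 with S share the same 10 S rats. The median change of the 10 genes was 0.00, 0.11, -0.08 and 0.04 in the order given. Over the 8825 genes the medians were 0.03, 0.02, 0.00 and 0.00.

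**Figure D1:**
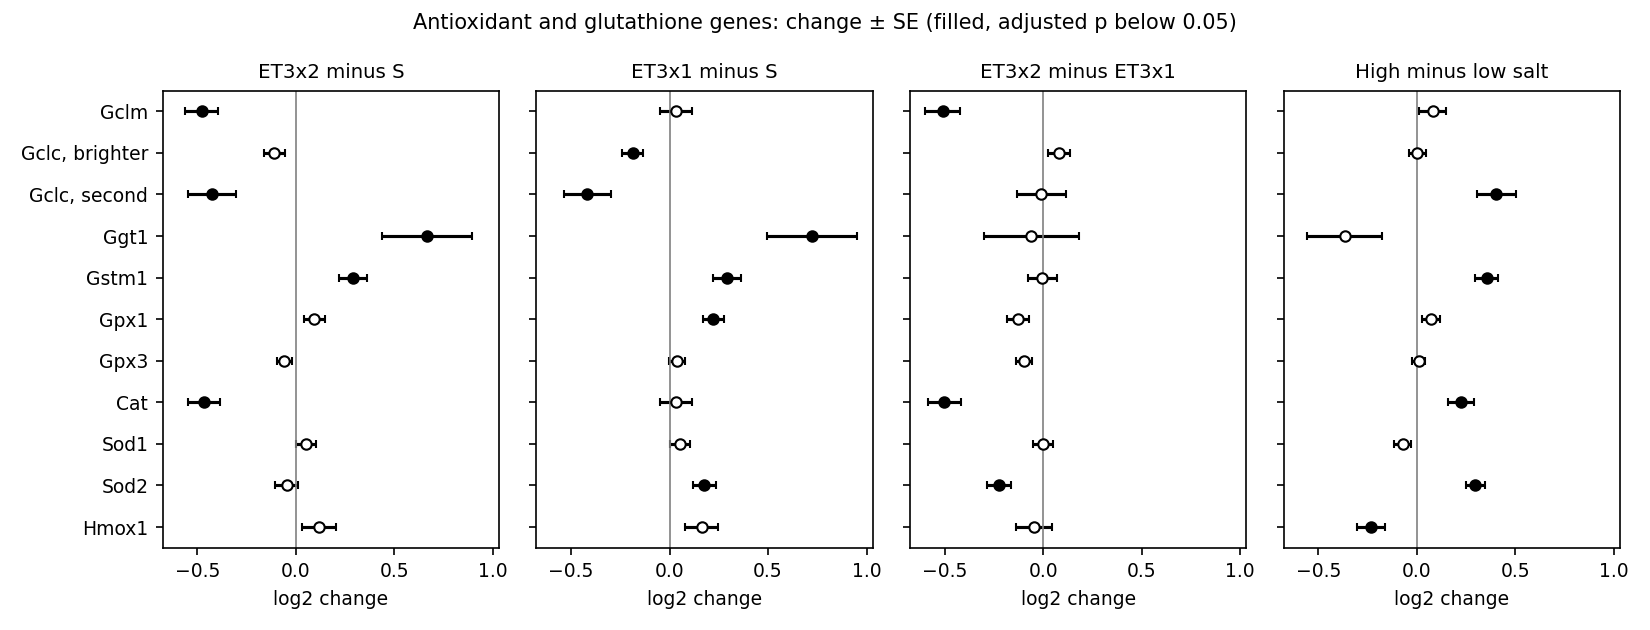
Log2 change ± SE of each of the 11 probe sets in the 4 averaged comparisons (x axis, log2), with filled points at an adjusted p below 0.05. Gclm and Cat lie left of 0 in both comparisons of ET3x2 and near 0 in ET3x1 minus S, and Ggt1 has the widest error bars.

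Gclm was lower in ET3x2 rats than in either other strain. It stood at 11.35, 11.05, 11.50 and 10.94 in ET3x2 rats on high salt and at 10.70, 10.98, 11.29 and 10.91 on low salt. In ET3x1 rats it stood at 11.50, 11.61, 11.88 and 11.82 on high salt and 11.57, 11.28, 11.58 and 11.56 on low salt. S rats had 11.67, 11.25, 11.60, 11.44 and 11.39 on high salt and 11.81, 11.47, 11.68, 11.66 and 11.72 on low salt. On low salt every ET3x2 rat was below every S rat, whereas on high salt the strains overlapped, with ET3x2 rats 1 and 3 among the S rats. From high to low the group means were 11.70 in ET3x1 on high salt, 11.67 in S on low salt, 11.50 in ET3x1 on low salt, 11.47 in S on high salt, 11.21 in ET3x2 on high salt and 10.97 in ET3x2 on low salt, and each group overlapped the next. Averaged over the diets Gclm fell by 0.48 ± 0.08 in ET3x2 against S (adjusted p = 0.000273), a fold of 1.39 lower. The ET3x2 minus ET3x1 change was -0.51 ± 0.09 (SE, adjusted p = 0.00105), and ET3x1 did not differ from S by a change that passed (0.03 ± 0.08 SE, adjusted p = 0.798). Split by diet, the ET3x2 minus S change was -0.70 ± 0.12 (SE, adjusted p = 0.000376) on low salt and -0.26 ± 0.12 (SE, adjusted p = 0.192) on high salt. The difference between these diet-specific changes did not pass its own test (0.44 ± 0.17 SE, adjusted p = 0.411). The averaged ET3x2 minus S call held with each of the 26 rats left out in turn, at -0.53 to -0.43.

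Cat, which encodes catalase, was also lowest in ET3x2 rats. In ET3x2 rats Cat stood at 11.72, 11.73, 11.94 and 11.26 on high salt and at 11.10, 11.20, 11.37 and 11.24 on low salt. ET3x1 rats had 12.13, 11.86, 12.08 and 12.28 on high salt and 11.90, 11.56, 11.89 and 11.86 on low salt. The S rats had 12.11, 12.06, 11.65, 11.82 and 11.83 on high salt and 12.14, 11.92, 11.77, 11.93 and 11.92 on low salt. All 4 ET3x2 rats on low salt were below every other rat except ET3x2 rat 4 on high salt. From high to low the group means were 12.09 ± 0.18 in ET3x1 on high salt, 11.93 ± 0.13 in S on low salt, 11.89 ± 0.19 in S on high salt, 11.80 ± 0.17 in ET3x1 on low salt, 11.66 ± 0.29 in ET3x2 on high salt and 11.23 ± 0.11 in ET3x2 on low salt (SD, n = 4 in the congenic and 5 in the S groups). Each group overlapped the next in this order. Averaged over the diets Cat was lower by a fold of 1.38 in ET3x2 than in S (-0.47 ± 0.08 SE, adjusted p = 0.000248) and by 1.42 than in ET3x1 (-0.50 ± 0.09 SE, adjusted p = 0.00105). The ET3x1 minus S change was 0.03 ± 0.08 (SE, adjusted p = 0.787). On low salt alone the ET3x2 minus S change was -0.71 ± 0.11 (SE, adjusted p = 0.000267), and on high salt it was -0.23 ± 0.11 (SE, adjusted p = 0.235). Against ET3x1 the change was -0.58 ± 0.12 (SE, adjusted p = 0.00898) on low salt and -0.43 ± 0.12 (SE, adjusted p = 0.0267) on high salt. The averaged ET3x2 minus S call held with each rat left out, at -0.51 to -0.40.

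**Figure D2:**
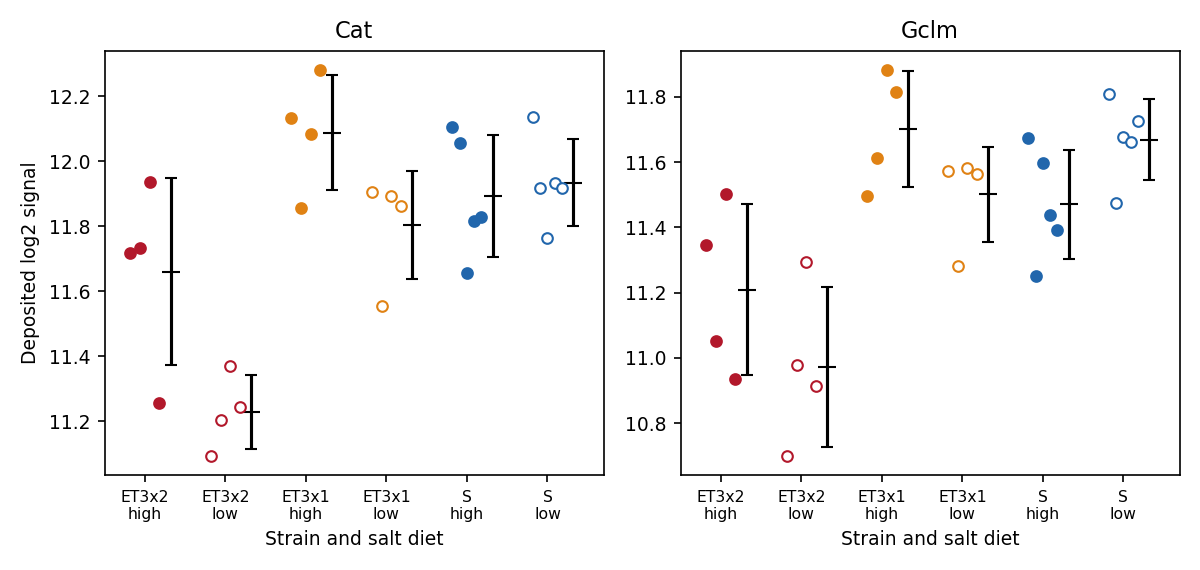
Deposited log2 signal (y axis) of Cat and Gclm in each of the 26 rats by strain and diet (x axis), with group mean ± SD beside the points. On low salt the ET3x2 rats lie below every S rat for both genes.

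Cat lies on chromosome 3, and its neighbours there were looked up after its values were seen. By RefSeq order Cat is number 301 of 670 tested genes of that chromosome. Of its 5 nearest tested genes on either side, Abtb2 (0.13 ± 0.05, adjusted p = 0.0334) and Nat10 (0.14 ± 0.05, adjusted p = 0.0476) were higher and Fbxo3 (-0.27 ± 0.08, adjusted p = 0.0153) lower in ET3x2 than in S. Over all tested probe sets 28.5% passed in that comparison, so these calls say little about the neighbourhood of Cat. Nat10 was also higher in ET3x1 than in S (0.15 ± 0.05, adjusted p = 0.03275), where Cat did not pass. None of the 10 neighbours passed in ET3x2 against ET3x1, where 11.1% of all probe sets did. Gclm and Gstm1 lie on chromosome 2, Gclc and Gpx1 on chromosome 8, and Sod2, Gpx3, Sod1, Hmox1 and Ggt1 on chromosomes 1, 10, 11, 19 and 20.

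Gclc was lower in ET3x1 than in S on both of its probe sets, but the probe sets did not give the same picture elsewhere. On the brighter one ET3x1 rats had 12.78, 12.76, 12.82 and 12.91 on high salt and 12.89, 12.53, 12.61 and 12.76 on low salt. S rats had 13.02, 12.72, 13.03, 12.84 and 12.93 on high salt and 12.99, 12.93, 13.09, 12.96 and 12.95 on low salt. All 4 ET3x1 rats were below all 5 S rats on low salt. The averaged ET3x1 minus S change was -0.19 ± 0.05 (SE, adjusted p = 0.00773), with -0.29 ± 0.07 (SE, adjusted p = 0.00622) on low salt. On the second one ET3x1 rats had 12.79, 13.05, 13.22 and 13.15 on high salt and 12.81, 11.91, 11.90 and 12.45 on low salt. The S rats had 13.30, 12.95, 13.37, 13.15 and 13.14 on high salt and 12.67, 12.71, 13.34, 12.93 and 13.21 on low salt there. Rats 2 and 3 of ET3x1 on low salt were the lowest of all 26 on this probe set.

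The second probe set gave an ET3x1 minus S change of -0.42 ± 0.12 (SE, adjusted p = 0.00991) averaged over the diets and of -0.71 ± 0.17 (SE, adjusted p = 0.00403) on low salt. On the brighter one ET3x2 rats had 12.97, 12.65, 12.84 and 12.81 on high salt and 12.82, 12.87, 12.93 and 12.82 on low salt. In ET3x2 rats the second one stood at 13.12, 12.26, 12.88 and 12.78 on high salt and 12.43, 12.79, 12.42 and 12.54 on low salt, which was -0.43 ± 0.12 (SE, adjusted p = 0.0102) against S. The brighter one had a change of -0.11 ± 0.05 (SE, adjusted p = 0.118) in that comparison. With salt the second probe set rose by 0.40 ± 0.10 (SE, adjusted p = 0.00671) averaged over strains and by 0.79 ± 0.18 (SE, adjusted p = 0.00355) in ET3x1, while the brighter one changed by 0.00 ± 0.04 (SE, adjusted p = 0.982) and 0.12 ± 0.08 (SE, adjusted p = 0.303). The difference within a rat, second minus brighter, averaged 0.23 ± 0.17 (SD, n = 4) in ET3x1 rats on high salt and -0.43 ± 0.29 (SD, n = 4) on low salt. In S rats it averaged 0.27 ± 0.05 (SD, n = 5) on high salt and -0.01 ± 0.26 (SD, n = 5) on low salt. Which parts of the transcript the probe sets match was not analysed here.

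**Figure D3:**
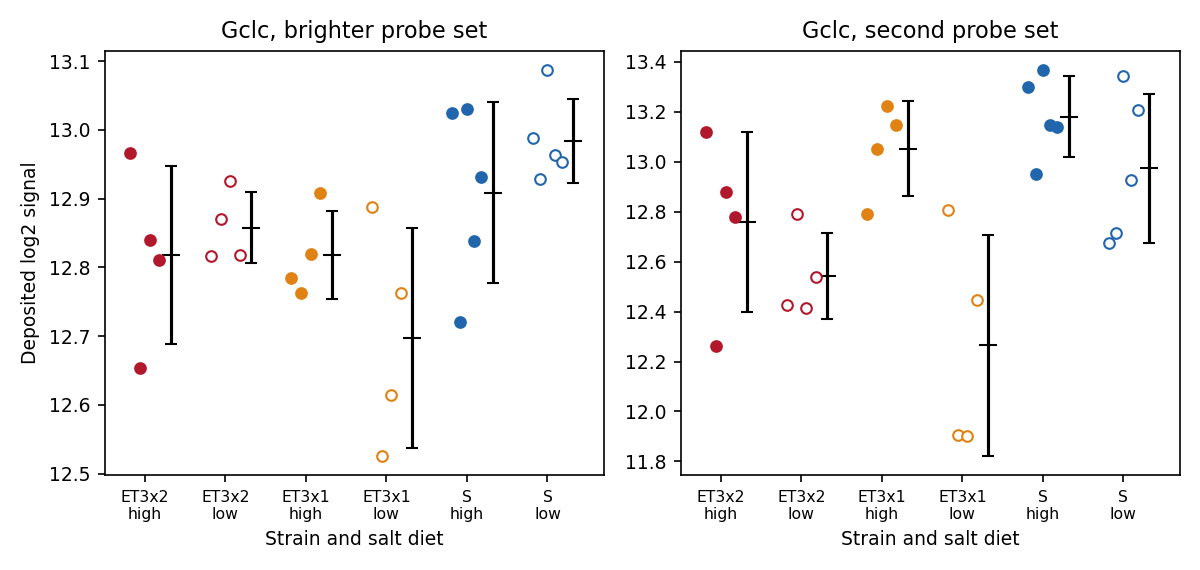
Deposited log2 signal (y axis) of the 2 Gclc probe sets in each rat by strain and diet (x axis), with group mean ± SD. On the second probe set the ET3x1 rats on low salt reach down to 11.90, and on the brighter one all rats lie within 12.53 to 13.09.

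Ggt1 encodes gamma-glutamyltransferase of the tubular brush border, which starts the breakdown of glutathione outside the cell. It was higher in both congenic strains than in S. ET3x2 rats had 12.69, 12.82, 12.68 and 12.79 on high salt and 12.81, 12.77, 12.37 and 12.99 on low salt. ET3x1 rats had 12.68, 12.70, 12.70 and 12.70 on high salt, against 12.81, 12.97, 12.98 and 12.86 on low salt. S rats had 10.47, 10.24, 12.08, 12.77 and 12.58 on high salt and 12.27, 12.42, 12.81, 12.38 and 12.72 on low salt. S rats 1 and 2 on high salt stand apart, and the other 24 rats lie between 12.08 and 12.99. The averaged changes were 0.67 ± 0.23 (SE, adjusted p = 0.0301) in ET3x2 and 0.72 ± 0.23 (SE, adjusted p = 0.0169) in ET3x1. On high salt they were 1.12 ± 0.32 (SE, adjusted p = 0.0459) and 1.07 ± 0.32 (SE, adjusted p = 0.0272).

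The same 2 S rats also had the lowest difference between the bioD and bioC spike-in controls on RAE230A, at 1.65 and 1.55, against 2.14 to 3.29 in the other 24 rats. Without both, the averaged Ggt1 change was 0.24 ± 0.09 (SE, adjusted p = 0.0586) in ET3x2 and 0.30 ± 0.09 (SE, adjusted p = 0.0167) in ET3x1. On high salt it was then 0.27 ± 0.14 in ET3x2 and 0.22 ± 0.14 in ET3x1, with adjusted p of 0.368 and 0.329, so these calls rest on the 2 rats. On low salt the changes were 0.21 ± 0.32 (SE, adjusted p = 0.681) in ET3x2 and 0.39 ± 0.32 (SE, adjusted p = 0.388) in ET3x1, but the residual spread they were set against includes these rats. Without both the low-salt ET3x1 change passed (0.39 ± 0.12, adjusted p = 0.0216) and the ET3x2 one did not (adjusted p = 0.222). With the spike-in difference as a covariate the low-salt changes were 0.93 ± 0.20 in ET3x2 (adjusted p = 0.00685) and 0.77 ± 0.19 in ET3x1 (0.0073), and the high-salt changes were 0.72 ± 0.19 in ET3x2 (0.0379) and 0.12 ± 0.22 in ET3x1 (0.787), the last no longer a call. The difference between the high-salt and low-salt changes did not pass its own test in ET3x2 (0.90 ± 0.46 SE, adjusted p = 0.565) or in ET3x1 (0.68 ± 0.46 SE, adjusted p = 0.386). With the Gapdh ratio described below as a covariate the averaged ET3x1 change was 0.66 ± 0.26 (SE, adjusted p = 0.0637). The averaged ET3x2 call was also lost on leaving out any 1 of 6 rats, which are S rats 1 and 2 and ET3x2 rats 2 and 4 on high salt and ET3x2 rats 1 and 4 on low salt, with changes over all 26 such fits of 0.49 to 0.81. Within groups the SD of Ggt1 was 0.55, against a median of 0.13 over the tested RAE230A probe sets. The fit with the spike-in covariate leans on S rats 1 and 2 on high salt, which are extreme in both measures. Apart from these fits, the part of the spike-in difference in the low Ggt1 values was not tested.

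**Figure D4:**
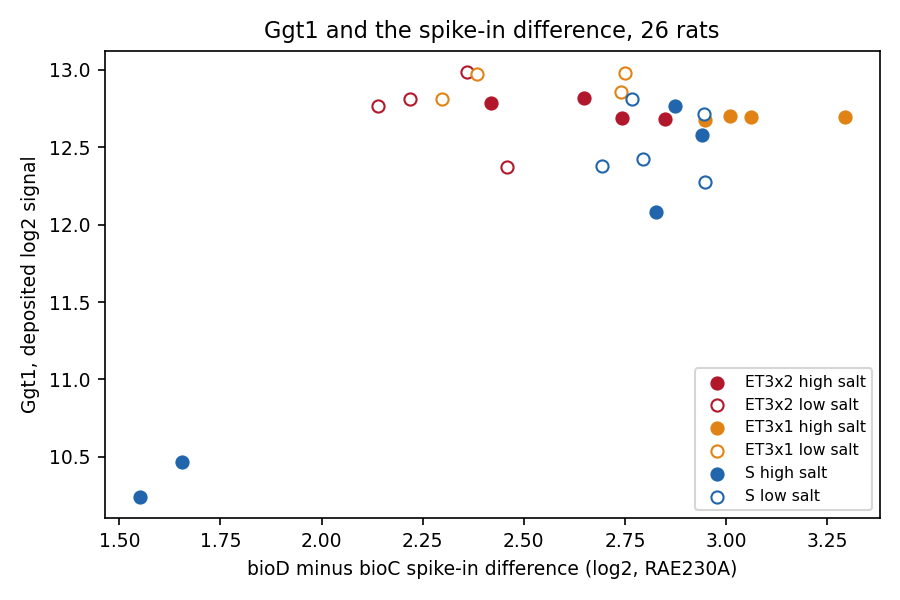
Ggt1 log2 signal (y axis) against the bioD minus bioC spike-in difference on RAE230A (x axis, log2) for the 26 rats, coloured by strain and filled on high salt. S rats 1 and 2 on high salt lie at 10.47 and 10.24 and at the left end of the x axis.

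Gstm1, a mu-class transferase that joins glutathione to electrophiles, was higher in both congenic strains than in S and rose with salt. On high salt it stood at 9.81, 10.14, 9.79 and 9.80 in ET3x2 rats, and on low salt at 9.42, 9.53, 9.20 and 9.59. ET3x1 rats had 9.72, 9.99, 9.66 and 9.80 on high salt and 9.53, 9.69, 9.44 and 9.49 on low salt. In S rats the values were 9.43, 9.63, 9.64, 9.61 and 9.45 on high salt and 9.07, 9.04, 9.35, 9.04 and 9.46 on low salt. All ET3x2 rats on high salt were above all ET3x2 rats on low salt, and all high-salt congenic rats were above all S rats. The ET3x2 minus S change was 0.29 ± 0.07 (SE, adjusted p = 0.00366) and the ET3x1 minus S change 0.29 ± 0.07 (SE, adjusted p = 0.00269). The averaged salt change was 0.35 ± 0.06 (SE, adjusted p = 0.000158), a fold of 1.28. It was 0.45 ± 0.10 (SE, adjusted p = 0.0504) in ET3x2, 0.26 ± 0.10 (SE, adjusted p = 0.0946) in ET3x1 and 0.36 ± 0.09 (SE, adjusted p = 0.0335) in S. The S call was lost without any 1 of 6 S rats (rats 2, 3 and 4 on high salt and 1, 2 and 4 on low salt), with changes of 0.32 to 0.43. Without S rats 1 and 2 on high salt together the change in S was 0.37 ± 0.11 (adjusted p = 0.139). Whether the probe set tells Gstm1 from its close relatives was not tested.

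Sod2, the mitochondrial manganese superoxide dismutase, was highest in ET3x1 rats on high salt. ET3x2 rats had 10.14, 10.21, 10.11 and 10.06 on high salt and 10.03, 10.00, 9.87 and 10.04 on low salt. In ET3x1 the values were 10.43, 10.62, 10.54 and 10.48 on high salt and 10.21, 9.78, 10.08 and 10.11 on low salt. S rats had 10.28, 10.34, 10.12, 10.35 and 10.10 on high salt and 9.86, 10.05, 10.02, 9.80 and 10.12 on low salt. The 4 ET3x1 rats on high salt exceeded all other 22 rats. Sod2 rose with salt by 0.30 ± 0.05 (SE, adjusted p = 0.000156) averaged over the strains and by 0.47 ± 0.09 (SE, adjusted p = 0.000511) in ET3x1. The salt change was 0.14 ± 0.09 (SE, adjusted p = 0.565) in ET3x2 and 0.27 ± 0.08 (SE, adjusted p = 0.0556) in S. On high salt it was lower in ET3x2 than in ET3x1 (-0.39 ± 0.09 SE, adjusted p = 0.00771) and higher in ET3x1 than in S (0.28 ± 0.08 SE, adjusted p = 0.0235). Averaged over the diets, the changes were -0.22 ± 0.06 (SE, adjusted p = 0.0208) between the congenic strains and 0.18 ± 0.06 (SE, adjusted p = 0.022) for ET3x1 against S, and both were lost without ET3x1 rat 1 on low salt (adjusted p = 0.0587 and 0.0573). All 4 of these strain calls of Sod2 were also lost with the Gapdh ratio described below as a covariate. On high salt the changes were then -0.28 ± 0.10 for ET3x2 minus ET3x1 (adjusted p = 0.123) and 0.13 ± 0.11 for ET3x1 minus S (0.554), and averaged over the diets they were -0.15 ± 0.07 (0.232) and 0.12 ± 0.06 (0.162).

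Hmox1 encodes the inducible enzyme that breaks down heme. The gene stood at 7.58, 7.84, 7.76 and 7.68 in ET3x2 rats on high salt and 8.21, 8.08, 7.79 and 7.63 on low salt. ET3x1 rats had 8.00, 7.68, 7.54 and 7.41 on high salt and 7.85, 8.12, 8.30 and 8.03 on low salt. S rats had 7.73, 7.58, 7.99, 7.64 and 7.43 on high salt and 7.81, 7.74, 7.81, 7.76 and 7.55 on low salt. In each strain the ranges of the diets overlapped. Hmox1 fell by 0.23 ± 0.07 with salt (adjusted p = 0.0284), and the call was lost without any 1 of 6 rats (ET3x1 rats 3 and 4 and ET3x2 rat 1 on high salt, ET3x1 rat 3 and ET3x2 rats 1 and 2 on low salt), with changes of -0.27 to -0.20. In ET3x1 the salt change was -0.42 ± 0.13 (SE, adjusted p = 0.0261), lost without any 1 of ET3x1 rats 3 and 4 on high salt and 2 and 3 on low salt. On low salt Hmox1 was higher in ET3x1 than in S (0.34 ± 0.12 SE, adjusted p = 0.0375), a call lost without S rat 2, 4 or 5 or ET3x1 rat 2, 3 or 4 on low salt. Both this call and the salt call in ET3x1 were also lost with the spike-in difference as a covariate. The same held with the Gapdh ratio described below as a covariate.

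**Figure D5:**
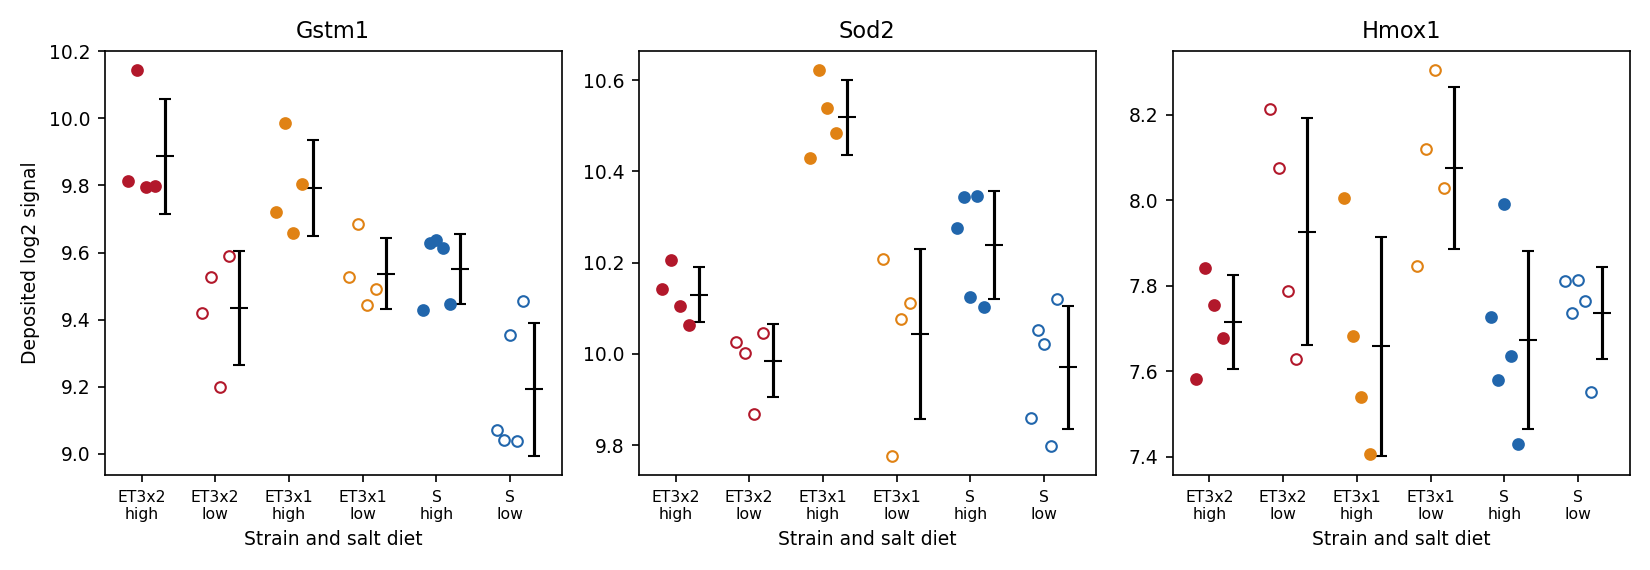
Deposited log2 signal (y axis) of Gstm1, Sod2 and Hmox1 in each rat by strain and diet (x axis), with group mean ± SD. The Sod2 panel shows the ET3x1 rats on high salt, at 10.43 to 10.62, above all other rats.

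Cat also rose with salt when the strains were averaged (0.23 ± 0.07 SE, adjusted p = 0.0238). Within strains its salt change was 0.43 ± 0.12 (SE, adjusted p = 0.115) in ET3x2, 0.28 ± 0.12 (SE, adjusted p = 0.107) in ET3x1 and -0.04 ± 0.11 (SE, adjusted p = 0.887) in S. The averaged call was lost without ET3x1 rat 2 on low salt or ET3x2 rat 3 on high salt (changes of 0.19 to 0.27), and it was 0.18 ± 0.07 (SE, adjusted p = 0.0792) without S rats 1 and 2. The averaged Hmox1 change without those rats was -0.23 ± 0.08 (SE, adjusted p = 0.0575).

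An RNA quality measure averaged lower on high than on low salt in ET3x1 and ET3x2 rats and hardly differed by diet in S rats. It also lay apart between some strains, as did the spike-in difference. The log2 ratio of the 3' to the 5' Gapdh control probe sets on RAE230A averaged 0.59 ± 0.03 in ET3x1 rats on high salt and 0.88 ± 0.10 on low salt (SD, n = 4 each, exact permutation p = 0.0286, the smallest that 4 against 4 can give, and 0.0857 adjusted over 18 tests, two-sided). It averaged 0.75 ± 0.11 and 0.95 ± 0.07 in ET3x2 rats on high and low salt (SD, n = 4 each, exact permutation p = 0.0571, adjusted 0.103), and 0.81 ± 0.05 and 0.83 ± 0.07 in S rats (SD, n = 5 each, exact permutation p = 0.706). On high salt the ratio was lower in ET3x1 than in ET3x2 rats and S rats in the means above, with an exact permutation p of 0.0286 for ET3x2 against ET3x1 (0.0857 adjusted) and of 0.00794 for ET3x1 against S (0.0714 adjusted). In ET3x1 rats it ran from 0.556 to 0.612 on high salt and from 0.768 to 0.986 on low salt. Diet and this ratio thus go together in ET3x1 rats, and their parts cannot be told apart there. With this ratio as a covariate none of the 10 genes passed for salt averaged over the strains, and over all probe sets 25 passed in place of 2239 (0.162%). The changes were then 0.40 ± 0.10 for Gstm1 (adjusted p = 0.0786), 0.18 ± 0.07 for Sod2 (0.366), 0.13 ± 0.11 for Cat (0.753) and -0.03 ± 0.10 for Hmox1 (0.965). The Gstm1 change was thus not smaller than the 0.355 without the covariate. The second Gclc probe set moved to 0.01 ± 0.13. Cat and Gclm were still lower in ET3x2 than in S under that covariate, at -0.45 ± 0.08 and -0.46 ± 0.08 (adjusted p = 0.000477 and 0.000507). Between ET3x2 and ET3x1 on high salt their calls were lost, at -0.34 ± 0.14 for Cat (adjusted p = 0.210) and -0.38 ± 0.15 for Gclm (0.161), as was the low-salt call of Gclm (-0.48 ± 0.13, adjusted p = 0.051). The spike-in difference on RAE230A averaged 2.29 ± 0.14 in ET3x2 rats and 2.83 ± 0.11 in S rats on low salt (SD, exact permutation p = 0.00794, adjusted 0.0714). On high salt it averaged 2.67 ± 0.18 in ET3x2 and 3.08 ± 0.15 in ET3x1 rats (SD, exact permutation p = 0.0286, adjusted 0.0857). With it as a covariate the low-salt ET3x2 minus S calls of Cat and Gclm held. The high-salt ET3x2 minus ET3x1 calls of both were lost.

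Gpx1, the cytosolic glutathione peroxidase, was higher in ET3x1 than in S. Its mean was 12.83 ± 0.04 in ET3x1 rats on high salt and 12.87 ± 0.08 on low salt (SD, n = 4 each), against 12.65 ± 0.10 and 12.60 ± 0.16 in S rats (SD, n = 5 each). The groups spanned 12.76 to 12.95 in ET3x1 and 12.44 to 12.82 in S on low salt, and so overlapped at the edge. The averaged change was 0.22 ± 0.05 (SE, adjusted p = 0.00306), and on low salt 0.27 ± 0.08 (SE, adjusted p = 0.0118), which was lost without ET3x1 rat 2 on low salt (adjusted p = 0.0507). ET3x2 rats averaged 12.82 ± 0.06 on high salt and 12.62 ± 0.15 on low salt (SD, n = 4 each). The ET3x2 minus S change was 0.09 ± 0.05 (SE, adjusted p = 0.194), and after quantile normalization it was 0.18 with an adjusted p of 0.00375.

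Gpx3, the glutathione peroxidase that the kidney secretes into plasma, and Sod1, the cytosolic copper and zinc superoxide dismutase, passed in none of the 16 comparisons as fitted with equal weights on the deposited values. Gpx3 lay between 14.35 and 14.69 in all 26 rats, and had the highest mean of all probe sets on RAE230A apart from controls. The highest value of any RAE230A probe set was also 14.69. Its SD within groups was 0.08, but signals at the top of an array's scale can be compressed, so this small spread and the intervals below do not show that Gpx3 was unchanged. Its group means were 14.43 ± 0.11 and 14.39 ± 0.01 in ET3x2 rats, 14.47 ± 0.08 and 14.54 ± 0.11 in ET3x1 rats (SD, n = 4 each), and 14.50 ± 0.07 and 14.44 ± 0.04 in S rats (SD, n = 5 each) on high and low salt. Its 95% interval was -0.14 to 0.02 for ET3x2 minus S, -0.04 to 0.12 for ET3x1 minus S, -0.18 to -0.01 for ET3x2 minus ET3x1 and -0.06 to 0.08 for salt. Sod1 averaged 13.36 ± 0.10 and 13.46 ± 0.11 in ET3x2 rats, 13.34 ± 0.03 and 13.49 ± 0.07 in ET3x1 rats (SD, n = 4 each), and 13.38 ± 0.09 and 13.34 ± 0.16 in S rats (SD, n = 5 each) on high and low salt. Single rats lay between 13.07 and 13.57. The intervals for Sod1 were -0.05 to 0.15, -0.05 to 0.15, -0.11 to 0.11 and -0.16 to 0.01 for the same comparisons. After quantile normalization the ET3x2 minus S change of Sod1 was 0.15 averaged over the diets (adjusted p = 0.0366) and 0.26 on low salt (0.0156). With array weights Sod1 passed for salt averaged over the strains (-0.10, adjusted p = 0.0456) and for salt in ET3x1 (-0.17, 0.0355). Gpx3 passed with array weights for salt in ET3x1 (-0.14, adjusted p = 0.0495), for ET3x1 against S on low salt (0.15, 0.0377) and for ET3x2 against ET3x1 on low salt (-0.20, 0.0416). It also passed in ET3x2 against ET3x1, diets averaged, without ET3x2 rat 3 on high salt (-0.12, adjusted p = 0.0474).

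Within single strains or diets between 0 and 4 members passed. With salt 0 of 10 genes passed in ET3x2 (3 at an unadjusted p below 0.05), against 0.304% of all probe sets. With limma array weights 2 genes passed there, against 7.37% of all probe sets. In ET3x1 2 passed (Sod2 and Hmox1) against 15.9%, and in S 1 passed (Gstm1) against 2.78%. On low salt 2 genes, Cat and Gclm, passed in ET3x2 against S, where 18.2% of probe sets did, and 4 passed in ET3x1 against S, where 26.8% did: Gpx1, Hmox1 and Gstm1 were higher and Gclc was lower. On high salt 2 passed in ET3x2 against S (Ggt1 and Gstm1) beside 4.25%, and 2 in ET3x1 against S (Ggt1 and Sod2) beside 14.5%. The high-salt Gstm1 call in ET3x2 (adjusted p = 0.0496) was lost without any 1 of 19 of the 26 rats, and without S rats 1 and 2 together it was 0.32 ± 0.12 (adjusted p = 0.199). Between the congenic strains 2 passed on low salt (Cat and Gclm) beside 2.73%, and 3 on high salt (Cat, Gclm and Sod2) beside 9.22%. In some of these comparisons the counts of members are near what the share over all probe sets gives for 10 genes. These are both comparisons with S on low salt, ET3x1 against S on high salt, and salt in ET3x1, in ET3x2 and in S. The counts there say little about the members.

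Several of these calls depended on single rats. On high salt the ET3x2 minus ET3x1 call of Cat was lost without ET3x1 rat 1, 3 or 4 or ET3x2 rat 4 (changes of -0.52 to -0.29) and that of Gclm without ET3x1 rat 3 or ET3x2 rat 2 or 4 (-0.59 to -0.40). On low salt the Gclm call between these strains was lost without ET3x1 rat 1, 3 or 4 or ET3x2 rat 1 or 4 (-0.64 to -0.44). The high-salt Sod2 call in ET3x1 against S was lost without S rat 3 or 5 or ET3x1 rat 2 or 3 (0.25 to 0.31), and the low-salt Gstm1 call in ET3x1 against S without ET3x1 rat 2 (0.30 to 0.41). The low-salt ET3x2 minus S calls of Cat (-0.75 to -0.66) and Gclm (-0.81 to -0.61) held without any single rat.

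Tests of the differences between salt responses called none of the 10 genes. For ET3x2 minus S, ET3x1 minus S and ET3x2 minus ET3x1 the shares of all probe sets were 0.0194%, 5.49% and 0.304%. In each of these tests 2 members had an unadjusted p below 0.05, and limma with array weights called 1 gene in each. With array weights the shares of all probe sets were 2.69%, 15.4% and 10.5%, so these counts say little about the members. For Cat the difference was 0.47 ± 0.16 (SE, adjusted p = 0.324) for ET3x2 minus S, and for Sod2 it was -0.33 ± 0.12 (SE, adjusted p = 0.213) for ET3x2 minus ET3x1. No member's salt response was thus shown to differ between strains in the fit without weights.

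Other genes of glutathione metabolism passed in few cases, and against S and with salt those that passed were higher. Of 17 tested, 3 rose and 0 fell in ET3x2 against S, among them Dpep1 (0.34), which cleaves the dipeptide left after Ggt1 acts, and the peroxidase Gpx2 (0.26), with Ggt7 at 0.21. In ET3x1 against S, 4 rose and 0 fell: Gpx4 (0.33), which reduces lipid peroxides, Glrx5 (0.32), Gpx2 (0.28) and Dpep1 (0.20). Between the congenic strains 1 was lower, Glrx5 (-0.25). With salt 4 rose and 0 fell: Gsr (0.31), which regenerates reduced glutathione, Gpx2 (0.25), Glrx (0.17) and Anpep (0.15). The list's median change was 0.06, 0.10, 0.00 and 0.03 in the 4 comparisons. Over all 8825 genes, 1572 were higher and 1149 lower in ET3x2 against S, and 1656 and 1181 in ET3x1 against S. Between the congenic strains 467 were higher and 429 lower in ET3x2, and with salt 759 rose and 461 fell.

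Of 13 glutathione transferases besides Gstm1, 1 was higher in ET3x2 than in S (Gstt2, 0.19) and 5 in ET3x1 than in S, led by Gstt1 (0.25) and Mgst3 (0.24), with none lower. None passed between the congenic strains. With salt 2 rose, Gstm2 (0.34), another mu-class enzyme, and Mgst3 (0.20), and 1 fell, Gsta1 (-0.18). The median changes were 0.09, 0.18, -0.08 and 0.06.

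Of 16 peroxiredoxin, thioredoxin and other superoxide genes, 3 were higher and 0 lower in ET3x2 against S, namely the methionine sulfoxide reductase Msrb1 (0.34), the Sod1 copper chaperone Ccs (0.19) and Prdx2 (0.16). In ET3x1 against S, 7 were higher and 1 lower, including the extracellular dismutase Sod3 (0.43), Msrb1 (0.36), the mitochondrial thioredoxin reductase Txnrd2 (0.35) and Srxn1 (-0.32), which repairs peroxiredoxins. Srxn1 was higher (0.33) and Txnip (-0.30) and Txnrd2 (-0.29) were lower in ET3x2 than in ET3x1, 1 and 2 genes. With salt 4 rose and 2 fell, among them Msra (0.39), Prdx6 (0.22), Prdx4 (0.20) and Txnip (-0.35), an inhibitor of thioredoxin. The median changes were 0.07, 0.13, -0.10 and 0.09.

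The genes of a list drawn up around NRF2 did not move one way. Of 15 tested, 1 was higher and 2 lower in ET3x2 against S: the biliverdin reductase Blvrb rose by 0.29, while Nfe2l2, which encodes NRF2, was at -0.26 and the quinone reductase Nqo1 at -0.22. In ET3x1 against S, Blvrb (0.57) was higher and Nqo1 (-0.20) lower, 1 gene each. Between the congenic strains Blvra (0.22) was the 1 called gene, higher in ET3x2. With salt 1 rose, Ephx1 (0.25), and 2 fell, Akr7a3 (-0.34) and Ugdh (-0.15). The list's medians were 0.02, 0.04, -0.02 and 0.01. Besides NRF2 and known targets, the list also holds Bach1 and Hmox2. Members such as Gclm were left out of it, and Srxn1 and Txnrd1 were counted with the peroxiredoxin and thioredoxin genes. The list therefore does not stand for the targets of NRF2 as a class.

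Among 9 enzymes that produce oxidants, 2 were higher and 2 lower in ET3x2 against S: the NADPH oxidase subunits Cyba (0.34) and Rac2 (0.20) were higher, and the kidney oxidase Nox4 (-0.33) and the peroxisomal hydroxyacid oxidase Hao2 (-0.34) lower. In ET3x1 against S, Cyba (0.54) and Rac2 (0.24) were higher and 0 lower. Hao2 was the 1 gene lower in ET3x2 than in ET3x1 (-0.20), and none passed for salt averaged over the strains. Of 13 other peroxisome genes 1 rose in ET3x2 against S (Ech1, 0.20) and 1 fell in ET3x1 against S (Slc27a2, -0.20). Pex11a (0.21) was higher and the import receptor Pex5 (-0.21) lower in ET3x2 than in ET3x1. With salt 4 rose and 3 fell, among them Ehhadh (0.45), Pxmp2 (0.21), Hsd17b4 (0.21) and Abcd3 (-0.27). The medians of the oxidant-producing list were -0.05, 0.06, -0.04 and 0.05, and those of the peroxisome list 0.00, 0.06, -0.05 and 0.06.

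The arrays carried kidney markers: all 8 proximal tubule and all 3 thick ascending limb markers were above the filter, as were 5 of 6 for the distal tubule and collecting duct and 2 of 5 for the glomerulus. Array medians ran from 7.47 to 7.52 on RAE230A and from 6.34 to 6.40 on RAE230B. In whole kidney, fewer cells of a type and less RNA per cell cannot be told apart, and Cat, Ggt1 and glutathione synthesis are known to be prominent in the proximal tubule. Beside the lower Cat and Gclm, 2 of 8 proximal tubule markers were lower and 0 higher in ET3x2 than in S (Lrp2 -0.52, Cubn -0.35), and 0 of 8 passed between ET3x2 and ET3x1. In ET3x1, where Cat and Gclm did not pass against S, the same 2 markers were also lower than in S (Lrp2 -0.36, Cubn -0.27) and 2 were higher (Slc5a2 0.25, Aqp1 0.21). The mean level of the 8 ranged from 11.76 to 11.96 in ET3x2 rats on high salt and from 11.81 to 11.96 on low salt. It ranged from 11.90 to 11.94 and from 11.95 to 12.10 in ET3x1 rats, and from 11.94 to 12.12 and from 11.75 to 12.07 in S rats on high and low salt. None of the 8 passed for salt. Of the 5 tested distal tubule and collecting duct markers, Aqp3 was lower in ET3x2 than in S (-0.35), Scnn1g was lower in ET3x1 than in S (-0.19) and Calb1 rose with salt (0.20). Of the 3 thick ascending limb markers, Slc12a1 was lower in ET3x2 than in S (-0.51) and than in ET3x1 (-0.38), and Kcnj1 rose with salt (0.69). Both tested glomerular markers were lower in ET3x2 than in S (Podxl -0.38, Synpo -0.34) and in ET3x1 than in S (Podxl -0.53, Synpo -0.50), and both fell with salt (-0.16 and -0.17). Of 3 tested endothelial markers 2 were lower in ET3x2 than in S and 1 in ET3x1 than in S. The endothelial receptor Kdr was lower in both congenic strains than in S (-0.60 in ET3x2 and -0.58 in ET3x1), and Pecam1 fell with salt (-0.16). The part of these markers in the members' results was not tested.

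Of 5 leukocyte markers above the filter (7 listed), 3 were higher and 0 lower in ET3x2 than in S, with Coro1a at 0.40, Fcer1g at 0.39 and Cd74 at 0.31, and the same 3 were higher in ET3x1, at 0.41, 0.37 and 0.29. Coro1a also rose with salt (0.25), beside the rise of Gstm1, Sod2 and Cat. The mean of the 5 ranged from 9.72 to 9.81 and 9.39 to 9.80 in ET3x2 rats, from 9.59 to 9.71 and 9.60 to 9.79 in ET3x1 rats, and from 9.42 to 9.64 and 9.16 to 9.49 in S rats on high and low salt. Averaged over the diets, Gstm1, Ggt1, Cyba and Rac2 were also higher in both congenic strains than in S. That shared direction does not show that the leukocyte markers and these genes vary together from rat to rat. The part of the leukocyte markers in the results of these genes was not tested. The red cell enzyme Alas2 was higher in ET3x2 than in S (0.71), the only one of 3 tested red cell markers that passed.

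For each member the gene with the most similar pattern was sought among the 8825 by Pearson's r over the 26 rats, which share strain, diet and array quality, as a description. Cat was most like Gatm (r = 0.924), which makes the creatine precursor, and Gclm most like the lysosomal protease Ctsl (r = 0.900). Sod2 was most like Eif3l (r = 0.891), Gpx1 like Cryl1 (r = 0.882) and Gstm1 like the fatty acid desaturase Fads2 (r = 0.875). Hmox1 was most like Dym (r = 0.824) and Ggt1 like Adamts16 (r = 0.811). Gclc was most like Nfat5 (r = 0.795), the osmotic stress factor, Sod1 like Snf8 (r = 0.772) and Gpx3 like Spink1l (r = 0.711).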

How the data were processed

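The study hybridised kidney RNA of 26 rats, 1 RAE230A and 1 RAE230B chip each, from 15 µg of total RNA, per the labels' protocols. The deposited values are log2 signals that the authors had normalized, as near-equal array medians show. The sources used here do not say how the arrays were summarised and normalized. The depth of arrays is not a count, and the number of arrays limits the precision. Each rat was 1 replicate, and replicate numbers do not pair rats.

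Control probe sets (57 per chip) and those whose mean was under the median of their chip (7.51 on RAE230A and 6.38 on RAE230B) were left out, and 100 shared by both chips were tested on RAE230A alone, which left 7933 and 7540. limma 3.58.1 in R 4.3.3 was fitted to each chip with 6 group coefficients, 20 residual degrees of freedom and the trend option of eBayes. The 16 two-sided comparisons were adjusted by Benjamini-Hochberg over both chips, with calls at an adjusted p below 0.05. The fit was tested on simulated data. Symbols were updated by Entrez identifier through a RefSeq table of GRCr8; 11110 tested probe sets had a single symbol, 274 had several and 4089 had none. A gene counts by its brightest probe set, and levels of different probe sets are not compared.

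The members and lists were chosen with earlier results of these data known. Named are all members, the called genes of each list with the largest absolute change (at most 4 per list and averaged comparison), and the most similar gene of each member. Alternatives were quantile normalization, no brightness filter, no intensity trend, adjustment within each chip, any probe set of a gene, the Gapdh ratio or the spike-in difference as covariate, array weights, and each rat left out. Leaving out S rats 1 and 2 on high salt together was chosen after seeing the data. Some loci were not analysed here.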

Additional observations from a re-analysis of the deposited data

Results flagged for a closer look

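In 66 groups of 4 or 5 rats the highest or lowest value was set against the rest by Dixon's gap, and 4 stood apart, where chance gives about 3.3 at 1 in 20. ET3x1 rat 2 on low salt was low for both Cat (11.56) and Gclm (11.28), against at least 11.86 and 11.56 in the other 3 rats of its group. ET3x1 rat 1 on high salt had a Ggt1 value of 12.68, which stood apart because the other 3 lay within 12.70, and the group's SD was 0.01. ET3x2 rat 2 on high salt had a Gstm1 value of 10.14, against 9.79 to 9.81 in the other 3.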

How the results depend on the processing

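No called change of a member reversed under any alternative run. Of 39 called changes of the 11 probe sets, 39 held without the intensity trend, 38 without the brightness filter, 38 with array weights, 36 with adjustment within each chip, 35 after quantile normalization, 31 with the spike-in difference as covariate, 19 with the Gapdh ratio as covariate and 32 without S rats 1 and 2 on high salt. With single rats left out, 925 of 1014 held. The lower Cat and Gclm of ET3x2 against S and against ET3x1, diets averaged, held under all of these. Where a count of called genes moved by over 1.5 times, it was as follows, and the cause was not tested. Quantile normalization gave 1 gene, Gstm1, for salt in ET3x2 and 1, Gclc, for ET3x2 against ET3x1 on low salt. Gclc was newly called there (0.33, adjusted p = 0.0218), while the calls of Cat and Gclm in that comparison were lost. No brightness filter gave 1 for salt in ET3x2 and 1 for ET3x2 against S on high salt, and no trend gave 1 for salt in ET3x2. Adjustment within each chip gave 2 for salt in S, 1 for salt in ET3x2 and 0 for ET3x2 against S on high salt. The Gapdh covariate gave 0 for salt averaged, salt in ET3x1, ET3x2 against S, ET3x1 against S and ET3x2 against ET3x1 on high salt, and 1 for ET3x2 against ET3x1 on low salt. The spike-in covariate gave 0 for salt in S, 1 for ET3x2 against S, 0 for ET3x1 against S and 1 for ET3x2 against ET3x1 on high salt. With it, Ggt1 fell with salt, averaged (-0.56, adjusted p = 0.00114), in a fit that leans on S rats 1 and 2 on high salt. Without those rats and without the covariate the change was -0.08 ± 0.07 (SE, adjusted p = 0.5285). Array weights gave 2 for salt in S, 5 in ET3x1 and 2 in ET3x2, 4 for ET3x1 against S on high salt, and 1 for each of the 3 differences between salt responses. The shares of all probe sets with array weights were 7.05%, 31%, 7.37% and 16.4% for the first 4 of these. For the differences they were 2.69% for ET3x2 minus S, 15.4% for ET3x1 minus S and 10.5% for ET3x2 minus ET3x1. Without S rats 1 and 2, counts were 2 for salt averaged, 0 for salt in S, 0 for ET3x2 against S and 1 for ET3x1 against S on high salt. Over all probe sets, calls for salt averaged were 2239, but 25 with the Gapdh covariate and 4234 with array weights, and for ET3x2 against ET3x1 they were 1725, but 462 with the Gapdh and 633 with the spike-in covariate.

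With each rat left out, counts ranged from 0 to 3 for salt in S, 1 to 2 in ET3x1 and 0 to 2 in ET3x2. On low salt they ranged from 1 to 4 for ET3x1 against S and 1 to 2 for ET3x2 against ET3x1. On high salt they ranged from 0 to 2 for ET3x2 against S, 0 to 2 for ET3x1 against S and 1 to 3 for ET3x2 against ET3x1. No paired analysis was possible because the labels number no litters or pairs of rats across groups.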
